A study of Mus musculus with 12 samples.

Results

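The heat shock proteins of the cytosol and the mitochondria were followed in HT22 cells through 10 genes chosen by name, of 24343 genes with a value in the deposited tables. These genes were picked with earlier results of these data known. They comprised the regulator Hsf1, the cytosolic HSP70 genes Hspa8, Hspa1a and Hspa1b, the HSP110 gene Hsph1 and the J-domain gene Dnajb1. Also included were the inducible cytosolic HSP90 gene Hsp90aa1, the small heat shock protein gene Hspb1, and the mitochondrial genes Hspd1 and Hspa9. All 10 were found, 9 were above 0 in every library and entered the tests, and Hspb1 was listed at 0 in all 12 libraries.

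HT22 is an immortalized line derived from mouse hippocampus, and total RNA was sequenced from 4 groups of 3 biological replicates. Cells carried liposome-delivered control siRNA at normal iron (siControl), Ncoa4 siRNA at normal iron (siNCOA4), control siRNA with the iron chelator desferrioxamine (DFO) at 100 µM for 24 h (siControl+DFO), or Ncoa4 siRNA with the same DFO treatment (siNCOA4+DFO). NCOA4 is the receptor that delivers ferritin to the lysosome for iron release. The groups allowed each treatment to be compared with control, alone and on top of the other. No genetic allele was used, every group was transfected, and all libraries came from this 1 line.

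Heat shock proteins bind unfolded proteins and use ATP, directly or through partners, to help them fold, to pass them on or to keep them from aggregating. In the cytosol, HSP70 works with J-domain proteins that bring clients and stimulate its ATPase and with HSP110 proteins that exchange its nucleotide, and it hands many clients to HSP90. Upon proteotoxic stress HSF1 trimerizes and binds heat shock elements, inverted repeats of the bases GAA, in the promoters of many of these genes. In the mitochondrial matrix, HSPA9 (mortalin) drives protein import and takes part in iron-sulfur cluster biogenesis, and HSPD1 (HSP60) forms a folding chamber with its lid HSPE1.

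Ncoa4 itself was measured at 6.02 to 6.46 FPKM (fragments per kilobase of gene length after scaling for library size, the deposited unit) in siControl and at 0.770 to 0.952 FPKM in siNCOA4. Under DFO it was at 7.52 to 8.70 FPKM with control siRNA and at 0.850 to 1.57 FPKM with Ncoa4 siRNA, and the groups did not overlap in either setting. Depth relative to the first siControl library, read from the spacing of FPKM values, ran from 0.928 to 1.41. The siNCOA4 libraries were the deepest, and siNCOA4+DFO replicate 3 was the shallowest. Small RNA genes took 33.3 to 34.4% of the FPKM sum in siControl, 31.2 to 35.6% in siNCOA4, 37.9 to 41.5% in siControl+DFO and 44.0 to 47.8% in siNCOA4+DFO, and the part of this shift in the results was not tested. Of 11 neuron markers only Tubb3 passed the filter on low values, whereas 5 of 5 fibroblast or mesenchymal markers did, at a summed 3095 to 3516 FPKM in siControl, 2299 to 2497 FPKM in siNCOA4, 1851 to 1932 FPKM in siControl+DFO and 1637 to 1825 FPKM in siNCOA4+DFO. The summed neuron markers were at 7.68 to 8.75, 4.66 to 6.45, 12.2 to 13.6 and 5.64 to 9.71 FPKM in the same order. The 5 astrocyte markers, of which 2 passed the filter, summed to 36.5 to 46.0, 22.5 to 27.0, 3.31 to 5.48 and 6.98 to 15.3 FPKM. The astrocyte sum came mostly from Slc1a3, while Gfap and Aqp4 stayed under the filter. The astrocyte and mesenchymal sums were lower in each DFO group than in its group without DFO, and their part in the results was not tested. In this bulk RNA, fewer cells with a transcript and less of it per cell cannot be told apart.

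With DFO in siControl cells, 5 of the 9 tested genes were called, a share close to the 53.4% of all genes called there. Dnajb1 and Hspa9 rose while Hspa8, Hsph1 and Hspd1 fell. The listed FPKM of the mitochondrial HSP70 gene Hspa9 stood above that of Hspa8 in siControl+DFO. A part of the Hspa8 reads could also match other genes, and the part of this in the order was not tested. Ncoa4 siRNA alone raised Hsp90aa1 by a small amount. Under DFO it lowered 5 of the 9 genes, against 10.2% of all genes lower, and raised Hspa8, against 6.22% higher. Only 3 of these 6 calls were left without siControl+DFO replicate 2 or without siNCOA4+DFO replicate 3, and 2 when only the groups compared were fitted. All changes below are on the log2 scale of FPKM + 0.1, and a gene was called at a Benjamini-Hochberg adjusted p below 0.05 over all genes tested with limma.

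**Figure D1:**
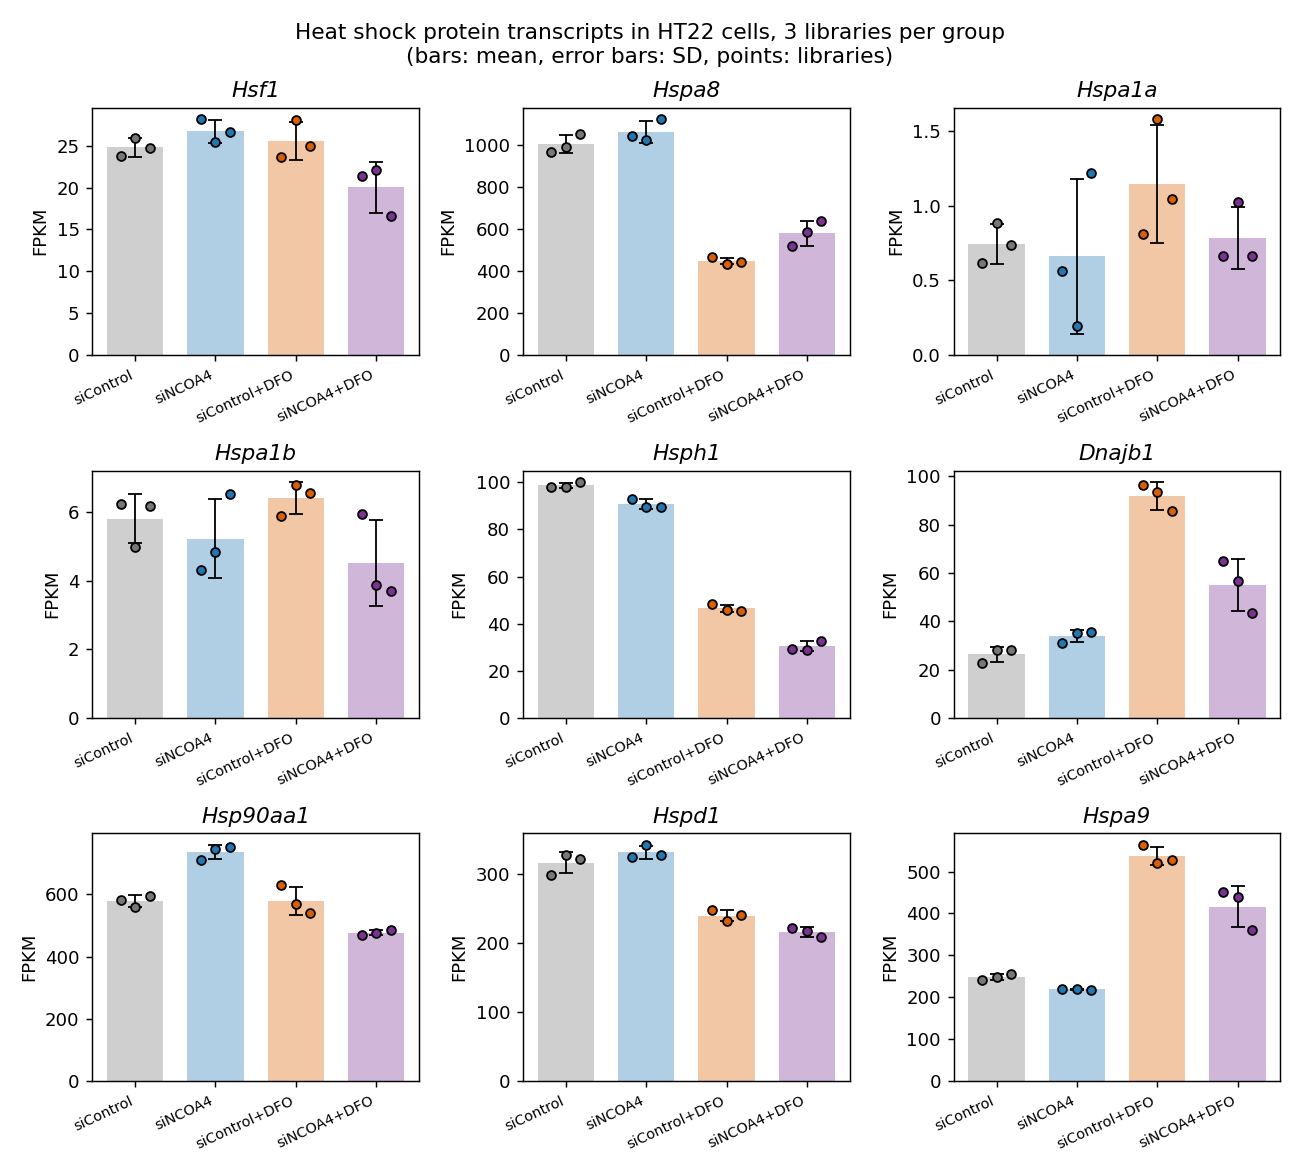
FPKM of the 9 tested heat shock genes (y axis, linear from 0) in the 4 groups (x axis), with 1 point per library, bars for the mean and error bars for the SD of 3 libraries. Dnajb1 and Hspa9 stood higher and Hspa8, Hsph1 and Hspd1 lower in both DFO groups than in the matching groups without DFO, and the group means of Hspa1a lay between 0.661 and 1.15 FPKM.

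Heat shock elements are shown first because they are the DNA feature that links these genes to HSF1. RefSeq promoters (build GRCm38.p6, 250 bases before to 50 bases after each start) were matched for 6 of the 10 genes, and no entry was matched for Hsf1, Hspa8, Hsp90aa1 and Hspa9. A 3-unit element was searched as TTCNNGAANNTTC or GAANNTTCNNGAA, and a 2-unit element as GAANNTTC or TTCNNGAA, which is contained in each 3-unit match. Both patterns were read on both strands. The 3-unit element was found in 0.603% of 32851 promoters and the 2-unit element in 15.1%. The stretches below run 5′ to 3′ on the strand of the gene, with the matched element in capitals and its position counted from the start site as 0.
Hspd1, chr1:55088059-55088081, minus strand, 3 units at -144 to -132: gggccTTCCGGAAGGTTCtagaa
Hsph1, chr5:149636283-149636305, minus strand, 3 units at 15 to 27: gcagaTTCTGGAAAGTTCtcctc
Hspa1b, chr17:34959329-34959348, minus strand, 2 units at -104 to -97: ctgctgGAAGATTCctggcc
Hspa1a, chr17:34972247-34972266, minus strand, 2 units at -104 to -97: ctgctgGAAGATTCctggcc
Hspb1, chr5:135887816-135887835, plus strand, 2 units at -97 to -90: ggggcaGAACCTTCctggcc
The Hspa1a and Hspa1b stretches were the same letter for letter. Hsph1 held the 3-unit match in the windows of both annotated starts, Hspd1 in 1 of 2, and neither window of Dnajb1 held a match of either kind. A second 3-unit match of Hspd1, at -139 to -127, overlapped the one shown. Both are counted from the inner start and lie downstream of the window of the other start. Matches of 2 units not shown were at -117 to -110 in Hspb1 and at -54 to -47 in Hsph1. Genes with a match included Hsph1 and Hspd1, which fell with DFO, and Hspa1a and Hspa1b, which were not called in any comparison, and Dnajb1 without a match rose. A match is a description of these letters only. Elements with other letters or outside these windows were not searched, so a missing match does not show a missing element. Whether HSF1 acts on these genes here was not tested.

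Hsf1 (chr15:76477422-76501913, plus strand, protein coding) encodes the main stress-responsive heat shock factor. It was at 23.7, 26.0 and 24.8 FPKM in siControl, 28.2, 25.4 and 26.6 FPKM in siNCOA4, 23.7, 28.1 and 24.9 FPKM in siControl+DFO, and 21.4, 22.1 and 16.6 FPKM in siNCOA4+DFO. The siNCOA4+DFO libraries lay below all others, and replicate 3, the shallowest library, was the lowest. Hsf1 fell by 0.43 on the log2 scale with DFO in siNCOA4 cells (SE 0.11, limma, Benjamini-Hochberg adjusted p = 0.0080), whereas the change with DFO in siControl cells was 0.04 (adjusted p = 0.78, limma). The difference of these effects was -0.47 (SE 0.16) and missed the threshold (adjusted p = 0.136, limma). Ncoa4 siRNA lowered Hsf1 under DFO by limma (log2 change -0.36, adjusted p = 0.044), but the call was lost without siNCOA4+DFO replicate 3 (-0.23, adjusted p = 0.129), without siControl+DFO replicate 2 (-0.29, adjusted p = 0.150), and, at adjusted p of 0.0544 to 0.0792, without siControl replicate 2 or 3, siNCOA4 replicate 1, 2 or 3, or siControl+DFO replicate 1 or 3. It was also lost with the replicate block (0.0519), no filter on low values (0.0614), no mean-variance trend (0.0679), quantile normalization (0.0968) and a fit of only the groups compared (0.114). Against siControl the change with both treatments was -0.32 (adjusted p = 0.030, limma), a call lost without siControl replicate 2 (0.0932), siControl replicate 3 (0.0653) or siNCOA4+DFO replicate 3 (0.106), and with only the groups compared (0.0702).

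Hspa8 (chr9:40800984-40810087, plus strand), the constitutive cytosolic HSP70, was the most abundant of the 10 genes in siControl and ranked 69th among all genes there. Its FPKM was 969, 993 and 1053 in siControl and 1045, 1025 and 1123 in siNCOA4, and these groups overlapped. With DFO it was 465, 436 and 444 FPKM in siControl+DFO and 520, 584 and 637 FPKM in siNCOA4+DFO. Every DFO library lay below every library without DFO, and every siNCOA4+DFO library lay above every siControl+DFO library. By limma, Hspa8 fell by 1.17 on the log2 scale in siControl cells (SE 0.095, adjusted p = 8.8e-07) and by 0.88 in siNCOA4 cells (adjusted p = 1.6e-05). The siNCOA4 effect under DFO was 0.37 (limma, adjusted p = 0.021) and the difference between the DFO effects was 0.29 (limma, adjusted p = 0.285). The rise under DFO lost its call without siControl+DFO replicate 2 (0.35, adjusted p = 0.077, limma), without siControl+DFO replicate 3 (0.36, adjusted p = 0.059), without siNCOA4+DFO replicate 2 (0.36, adjusted p = 0.056) and without siNCOA4+DFO replicate 3 (0.30, adjusted p = 0.071). It was also lost with only the groups compared (adjusted p = 0.053, limma). Of its 75-base windows, 33.1% occur in other genes, mostly in the pseudogene Gm15459, so a part of its reads could also match elsewhere. Gm15459 is not among the genes with a listed value.

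Hspa1a (chr17:34969190-34972156) and Hspa1b (chr17:34956436-34959238) are neighbouring single-exon genes on the minus strand that encode the stress-inducible cytosolic HSP70. Hspa1a was at 0.616, 0.884 and 0.737 FPKM in siControl, 0.565, 0.195 and 1.22 FPKM in siNCOA4, 0.814, 1.58 and 1.05 FPKM in siControl+DFO, and 0.666, 1.03 and 0.664 FPKM in siNCOA4+DFO. Hspa1b was at 6.25, 4.98 and 6.18 FPKM in siControl, 4.32, 4.86 and 6.52 FPKM in siNCOA4, 5.90, 6.78 and 6.57 FPKM in siControl+DFO, and 5.97, 3.88 and 3.70 FPKM in siNCOA4+DFO. The groups of both genes overlapped in every comparison. Neither gene was called, and their DFO changes in siControl cells were 0.53 (95% interval -0.53 to 1.58) and 0.15 (-0.30 to 0.59) on the log2 scale. Since 61.7% of the windows of Hspa1a and 55.8% of those of Hspa1b occur in other genes, chiefly in each other, their FPKM were also summed. The sum was not called in any comparison, and its largest change was -0.52 with siNCOA4 under DFO (limma, adjusted p = 0.0926). Without siNCOA4+DFO replicate 1, Hspa1b alone became called by limma under DFO (-0.74, adjusted p = 0.023) and against siControl (-0.60, adjusted p = 0.024). Hspa8 made up 98.1 to 99.5% of the FPKM summed over Hspa8, Hspa1a and Hspa1b in every library.

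Hsph1 (chr5:149614287-149636376, minus strand), the HSP110 nucleotide exchange factor of HSP70, had the tightest replicates in siControl. It was at 97.9, 98.1 and 100.0 FPKM in siControl, 93.1, 89.5 and 89.5 FPKM in siNCOA4, 48.3, 46.0 and 45.6 FPKM in siControl+DFO, and 29.4, 28.9 and 32.9 FPKM in siNCOA4+DFO. No 2 groups overlapped, and the order was siControl, siNCOA4, siControl+DFO, siNCOA4+DFO. By limma Hsph1 fell by 1.08 on the log2 scale with DFO in siControl cells (SE 0.065, adjusted p = 7.7e-08) and by 1.58 in siNCOA4 cells (adjusted p = 2.3e-08). Both treatments together gave a 3.25-fold lower level than siControl (log2 change -1.70, adjusted p = 5.0e-09, limma). The siNCOA4 change was -0.12 at normal iron (limma, adjusted p = 0.26) and -0.62 under DFO (limma, adjusted p = 1.8e-04). Hsph1 shared no 75-base window with another gene.

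Dnajb1 (chr8:83608193-83612653, plus strand), a J-domain partner that activates HSP70, showed the largest rise of the 9 tested genes. It was at 22.7, 28.3 and 28.1 FPKM in siControl, 31.1, 35.2 and 35.5 FPKM in siNCOA4, 96.4, 93.5 and 85.5 FPKM in siControl+DFO, and 64.9, 56.7 and 43.4 FPKM in siNCOA4+DFO. All 4 groups were separate, with siControl+DFO the highest. Dnajb1 rose 3.49-fold with DFO in siControl cells (log2 change 1.80, SE 0.14, adjusted p = 4.5e-07, limma) and 1.60-fold in siNCOA4 cells (log2 change 0.68, adjusted p = 0.0015, limma). Under DFO, Ncoa4 siRNA lowered it 1.69-fold (log2 change -0.76, adjusted p = 0.0035, limma). At normal iron the siNCOA4 change was 0.37 (adjusted p = 0.102, limma), and it was called when siNCOA4+DFO replicate 3 was left out (adjusted p = 0.032) and with quantile normalization (adjusted p = 0.0496).

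Hsp90aa1 (chr12:110690605-110702728, minus strand) encodes the inducible cytosolic HSP90. It was at 583, 560 and 595 FPKM in siControl, 712, 745 and 753 FPKM in siNCOA4, 629, 570 and 539 FPKM in siControl+DFO, and 469, 476 and 486 FPKM in siNCOA4+DFO. The siNCOA4 libraries were the highest and the siNCOA4+DFO libraries the lowest, and siControl and siControl+DFO overlapped. By limma Hsp90aa1 rose 1.27-fold with Ncoa4 siRNA at normal iron (log2 change 0.35, SE 0.082, adjusted p = 0.0176). In siControl cells the DFO change was -0.00 (95% interval -0.18 to 0.18), and in siNCOA4 cells the gene fell by 0.63 (adjusted p = 7.1e-05, limma). The siNCOA4 call at normal iron was lost by limma without siControl replicate 2 (0.32, adjusted p = 0.063), without siNCOA4 replicate 2 (0.34, adjusted p = 0.060) and without siNCOA4 replicate 3 (0.33, adjusted p = 0.064). Under DFO the siNCOA4 change was -0.28 (adjusted p = 0.038, limma), a call lost with quantile normalization (-0.16, adjusted p = 0.277) and, at adjusted p of 0.0502 to 0.132, without siControl replicate 2 or 3, siNCOA4 replicate 1 or 3, siControl+DFO replicate 1 or 2, or any siNCOA4+DFO replicate. It was also lost with no filter on low values (0.0525), the replicate block (0.0672) and only the groups compared (0.0917). Against siControl the change with both treatments was -0.28 (adjusted p = 0.0134, limma), a call lost with quantile normalization (-0.12, adjusted p = 0.285). Of its windows 42.8% occur in other genes, chiefly in the pseudogene Gm12346.

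Hspb1 (chr5:135887919-135889563, plus strand), the small heat shock protein HSP27, was listed at 0 in all 12 libraries. Of its windows 46.4% occur in the pseudogene Hsp25-ps1, and a listed 0 in FPKM gives no limit of detection.

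Hspd1 (chr1:55077835-55088243, minus strand), the mitochondrial chaperonin, was at 298, 327 and 321 FPKM in siControl, 324, 341 and 326 FPKM in siNCOA4, 247, 231 and 240 FPKM in siControl+DFO, and 222, 217 and 208 FPKM in siNCOA4+DFO. Both DFO groups lay below both groups without DFO. By limma Hspd1 fell by 0.40 with DFO in siControl cells (SE 0.068, adjusted p = 3.4e-04) and by 0.62 in siNCOA4 cells (adjusted p = 1.9e-05) on the log2 scale. At normal iron the siNCOA4 change was 0.07 (limma, adjusted p = 0.58), and it was called with quantile normalization (0.21, adjusted p = 0.0449). The siNCOA4 change under DFO was -0.15 (limma, adjusted p = 0.15) although those groups did not overlap. It was 0.0227 with quantile normalization. Hspe1, the lid of the chaperonin, which overlaps Hspd1 at its exons, also fell with DFO in siControl cells (log2 change -0.69, adjusted p = 4.8e-04, limma). Of the windows of Hspd1, 31.0% occur in other genes, chiefly in Hspd1-ps3.

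Hspa9, the mitochondrial HSP70, rose with DFO in contrast to Hspd1 of the same compartment. It was at 241, 249 and 255 FPKM in siControl, 219, 220 and 217 FPKM in siNCOA4, 563, 520 and 528 FPKM in siControl+DFO, and 450, 439 and 359 FPKM in siNCOA4+DFO. All 4 groups were separate, and siNCOA4+DFO replicate 3 was the lowest of the DFO libraries. By limma Hspa9 rose 2.16-fold with DFO in siControl cells (log2 change 1.11, SE 0.088, adjusted p = 6.9e-07) and 1.90-fold in siNCOA4 cells (log2 change 0.92, adjusted p = 6.4e-06). Under DFO Ncoa4 siRNA lowered it 1.30-fold (log2 change -0.37, adjusted p = 0.0135, limma), and this call was lost with quantile normalization (-0.18, adjusted p = 0.075) and with only the groups compared (adjusted p = 0.063).

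The order of levels differed between groups. In siControl it ran Hspa8, Hsp90aa1, Hspd1, Hspa9, Hsph1, Dnajb1, Hsf1, Hspa1b and Hspa1a by mean FPKM, a measure per transcript length, and only the neighbours Dnajb1 and Hsf1 overlapped. In siControl+DFO it ran Hsp90aa1, Hspa9, Hspa8, Hspd1, Dnajb1, Hsph1, Hsf1, Hspa1b and Hspa1a, and only Hsp90aa1 and Hspa9 overlapped. In siNCOA4+DFO Hspa8 again stood first at 580 ± 58.6 FPKM (SD, n = 3), followed by Hsp90aa1 at 477 ± 8.54 and Hspa9 at 416 ± 49.5 FPKM. The ratio of Hspa9 to Hspa8 FPKM within a library was 0.242 to 0.250 in siControl, 0.193 to 0.215 in siNCOA4, 1.19 to 1.21 in siControl+DFO and 0.564 to 0.866 in siNCOA4+DFO. The ratio was lowest in siNCOA4 and highest in siControl+DFO, with no overlap of the groups. Other genes share 33.1% of the windows of Hspa8, 42.8% of those of Hsp90aa1 and 31.0% of those of Hspd1, against 0.227% for Hspa9. A part of the reads of such genes could also match elsewhere. The part of this in the order of Hspa9 and Hspa8 in siControl+DFO, and in the other orders, was not tested.

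**Figure D2:**
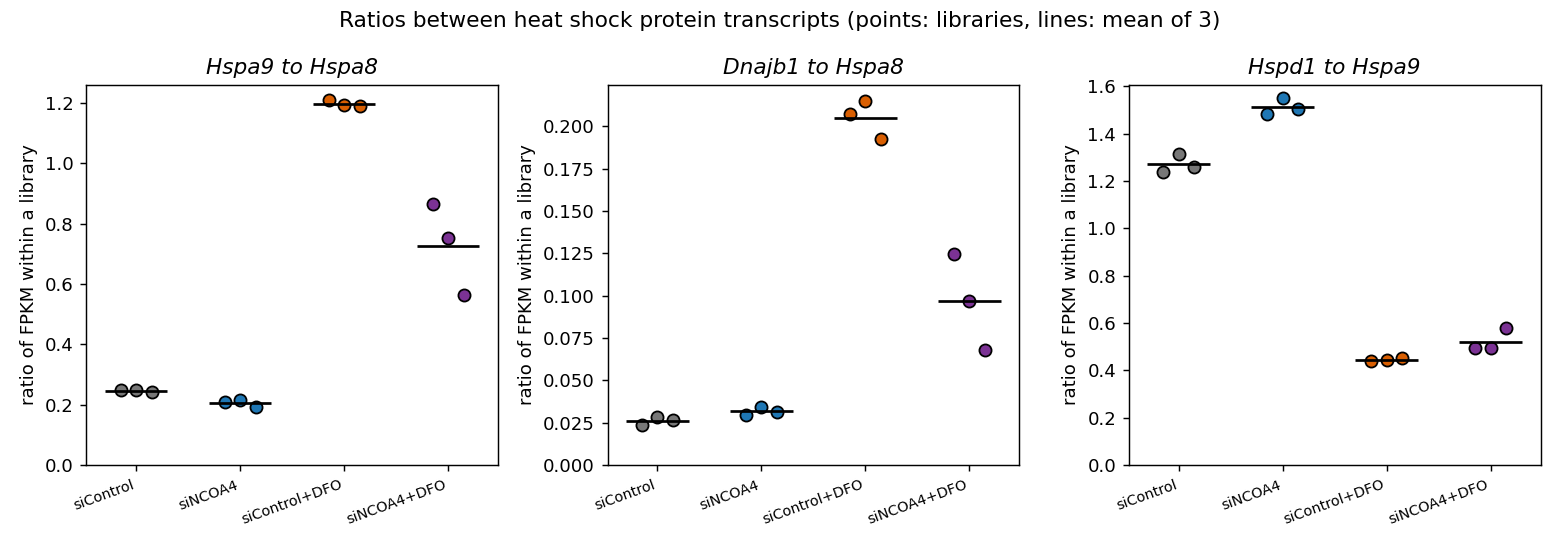
Ratios of FPKM within a library (y axes, linear from 0) for Hspa9 to Hspa8, Dnajb1 to Hspa8 and Hspd1 to Hspa9 in the 4 groups (x axis), with 1 point per library and lines for the mean of 3. The Hspa9 to Hspa8 ratio was 0.242 to 0.250 in siControl and 1.19 to 1.21 in siControl+DFO, and the 3 siNCOA4+DFO libraries were spread between 0.564 and 0.866. A part of the Hspa8 and Hspd1 reads could also match other genes, and the part of this in the ratios was not tested.

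The calls over the 9 tested genes were set beside those over all 11924 genes tested. With DFO in siControl cells, 5 of 9 were called against 53.4% of all genes, 2 of them higher against 27.7% and 3 lower against 25.7%. With DFO in siNCOA4 cells 7 of 9 were called against 42.7%, 2 higher against 23.1% and 5 lower against 19.6%. The median change of the 9 genes was 0.04 and -0.43 on the log2 scale in these comparisons, with all-gene medians of -0.01 and -0.00. With siNCOA4 at normal iron 1 of 9 was called against 11.7%, and it was higher, as were 4.52% of all genes. With siNCOA4 under DFO 6 of 9 were called against 16.5%, 1 higher against 6.22% and 5 lower against 10.2%. The medians of the 9 genes were 0.07 and -0.37 there, and those of all genes 0.00 and -0.01. Without siControl+DFO replicate 2, or without siNCOA4+DFO replicate 3, 3 of the 6 calls under DFO were left. With both treatments against siControl 7 of 9 were called against 48.8% of all genes, 2 higher against 25.4% and 5 lower against 23.4%. With a fold change above 2 required as well, which was the rule of the study, 4 genes remained for DFO in siControl cells against 18.8% of all genes, 1 for DFO in siNCOA4 cells against 11.4%, and 2 for both treatments against 15.2%. None remained for siNCOA4 at normal iron (1.78% of all genes) or under DFO (2.09%). Groups did not overlap for 4 of the 9 genes with siNCOA4 at normal iron against 32.6% of all genes, for 5 with DFO in siControl cells against 60.7%, and for 7 with DFO in siNCOA4 cells against 52.6%. The same held for 7 genes with siNCOA4 under DFO against 34.8% and for 7 with both treatments against 54.8%. These comparisons share groups, so their counts are not independent of each other. The genes were chosen with earlier results of these data known, so the contrast with all genes is a description only.

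**Figure D3:**
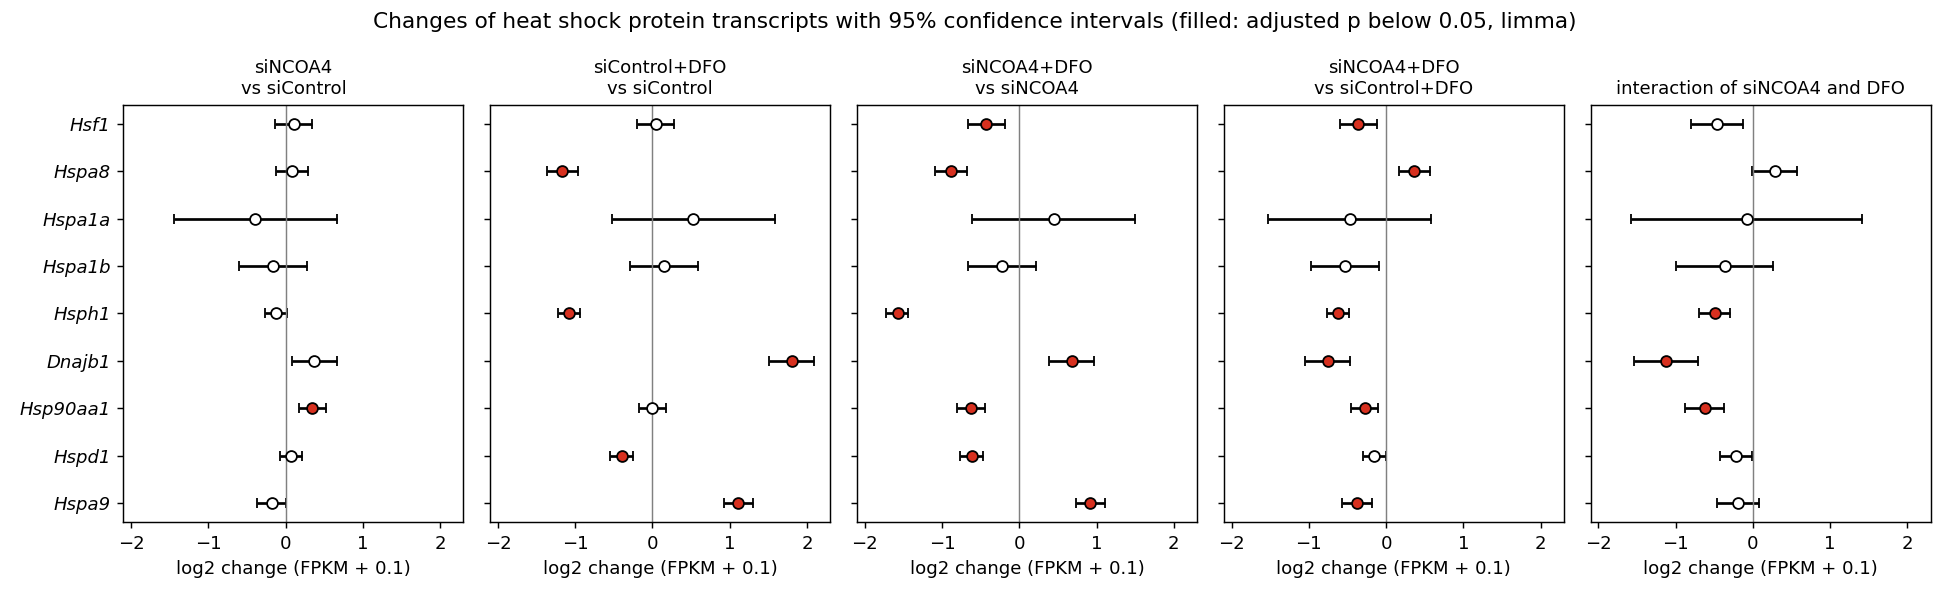
Log2 changes of the 9 tested genes (x axes, on the log2 scale of FPKM + 0.1) with 95% confidence intervals in 4 comparisons and in the interaction, filled where the limma adjusted p was below 0.05. Hspa8 was the only gene that lay to the right of 0 and was filled with siNCOA4 under DFO, and Dnajb1, Hsph1 and Hsp90aa1 were filled in the interaction.

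The interaction is the siNCOA4 change under DFO minus the siNCOA4 change at normal iron, and is 0 where the 2 treatments add up on the log2 scale. It was called for 3 of 9 genes against 2.1% of all genes, and all 3 were lower, against 1.43%. As the genes were chosen with earlier results of these data known, these shares are a description only. With a fold above 2 only Dnajb1 remained, against 0.813%. Dnajb1 had an interaction of -1.13 (SE 0.19, adjusted p = 0.0159, limma), and this call was kept in all alternatives run. For Hsp90aa1 it was -0.62 (SE 0.12, adjusted p = 0.0197, limma), with siNCOA4 changes of 0.35 at normal iron and -0.28 under DFO. For Hsph1 it was -0.50 (SE 0.092, adjusted p = 0.0198, limma). The Hsp90aa1 call was lost by limma without siControl replicate 2 (adjusted p = 0.0511), siNCOA4 replicate 2 (0.0523), siNCOA4 replicate 3 (0.0561) or siControl+DFO replicate 1 (0.0565). The Hsph1 call was lost without siControl replicate 2 (0.0506), siNCOA4 replicate 1 (0.0523), siNCOA4 replicate 3 (0.0550), siControl+DFO replicate 1 (0.0603) or siNCOA4+DFO replicate 2 (0.0511), and with quantile normalization (0.0635). Without siControl replicate 2, siNCOA4 replicate 3 or siControl+DFO replicate 1, Dnajb1 was the 1 gene left.

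Genes with the most similar pattern were sought for the 4 members with the largest changes, by the root mean square difference of centred log2 values over the 12 libraries. Nearest to Dnajb1 were Cdc34 (0.140), Ezr (0.143) and Mak16 (0.146), and nearest to Hspa9 were Atf4 (0.0701), Nop14 (0.0723) and Ythdc1 (0.0746). Atf4, a transcription factor of the integrated stress response, had mean values of 256, 237, 527 and 435 FPKM in siControl, siNCOA4, siControl+DFO and siNCOA4+DFO. Nearest to Hspa8 were Nedd4 (0.0913), Ppp1r21 (0.0946) and Phka2 (0.105), and nearest to Hsph1 were Kif20a (0.147), Pak1 (0.176) and Kif22 (0.177). Among the 10 genes themselves, Dnajb1 and Hspa9 differed by 0.279 and Hspa8 and Hsph1 by 0.392.

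The partners of these chaperones were described by lists of related genes, chosen with earlier results of these data known. Their counts stand against 27.7% of all genes higher and 25.7% lower with DFO in siControl cells, and 23.1% higher and 19.6% lower with DFO in siNCOA4 cells. Of 19 tested genes of HSP90 and its co-chaperones, 2 were higher and 10 lower with DFO in siControl cells (27.7% and 25.7% of all genes), with a median of -0.24 against -0.01 for all genes. Ahsa1, which activates the HSP90 ATPase, fell by 1.70 on the log2 scale (adjusted p = 4.8e-08, limma), and Fkbp4, a co-chaperone of steroid receptors, fell by 0.99 (adjusted p = 9.2e-06, limma). With DFO in siNCOA4 cells the count was again 2 higher and 10 lower, and the median was -0.33. Of 17 J-domain genes, 9 were higher and 2 lower with DFO in siControl cells, against 27.7% and 25.7% of all genes (median 0.23), including Dnajc9 (log2 change 1.40), Dnajb4 (1.13) and Dnajb2 (0.99), while Dnajb14 fell by 1.54 and Dnaja1 by 0.50.

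Of 6 tested other HSP70 and HSP110 genes, 3 were higher and 3 lower with DFO in siControl cells, where 27.7% of all genes were higher and 25.7% lower, with Hspa14 at 0.66 and Hspa2 at -1.35 on the log2 scale. Of 10 nucleotide exchange factors and HSP70 co-factors, 3 were higher and 3 lower in siControl cells, near the shares of all genes. In siNCOA4 cells 0 were higher and 6 lower, against 23.1% and 19.6% of all genes, and the median was -0.31. St13, which binds HSP70, fell by 0.68 in siControl and by 0.52 in siNCOA4 cells (adjusted p = 4.1e-06 and 6.9e-05, limma). Of 5 small heat shock protein genes, 2 were higher and 1 lower in siControl cells (27.7% and 25.7% of all genes), with Cryab, alpha-B crystallin, at 0.87 and Hspb6 at -1.15. Of 4 genes of the HSF family and HSF1-binding proteins 2 were higher there and 0 lower, among them Hsf2 (0.56, adjusted p = 0.0039, limma).

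Of 21 tested mitochondrial chaperones and proteases, 3 were higher and 5 lower with DFO in siControl cells, against 27.7% and 25.7% of all genes, with a median of -0.07. Lonp1, the matrix AAA protease, rose by 1.60 on the log2 scale (adjusted p = 1.8e-07, limma) and Dnaja3, the mitochondrial J-domain partner of HSPA9, by 0.50 (adjusted p = 4.7e-04, limma). Oma1, a protease of the inner membrane, fell by 0.90 (adjusted p = 0.0016, limma). Among these 21 genes, 0 were higher and 2 lower with siNCOA4 under DFO, against 6.22% and 10.2% of all genes. The median was -0.04, and the 2 genes were Lonp1 (-0.56, adjusted p = 0.0051, limma) and Tomm70a (-0.65, adjusted p = 4.4e-04, limma). Of 14 tested genes of the cytosolic TRiC chaperonin and prefoldin, 1 was higher and 2 lower with DFO in siControl cells, both below the shares of all genes. In siNCOA4 cells 0 were higher and 7 lower, against 23.1% and 19.6% of all genes, and Cct3 fell by 0.75 (adjusted p = 8.2e-06, limma).

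**Figure D4:**
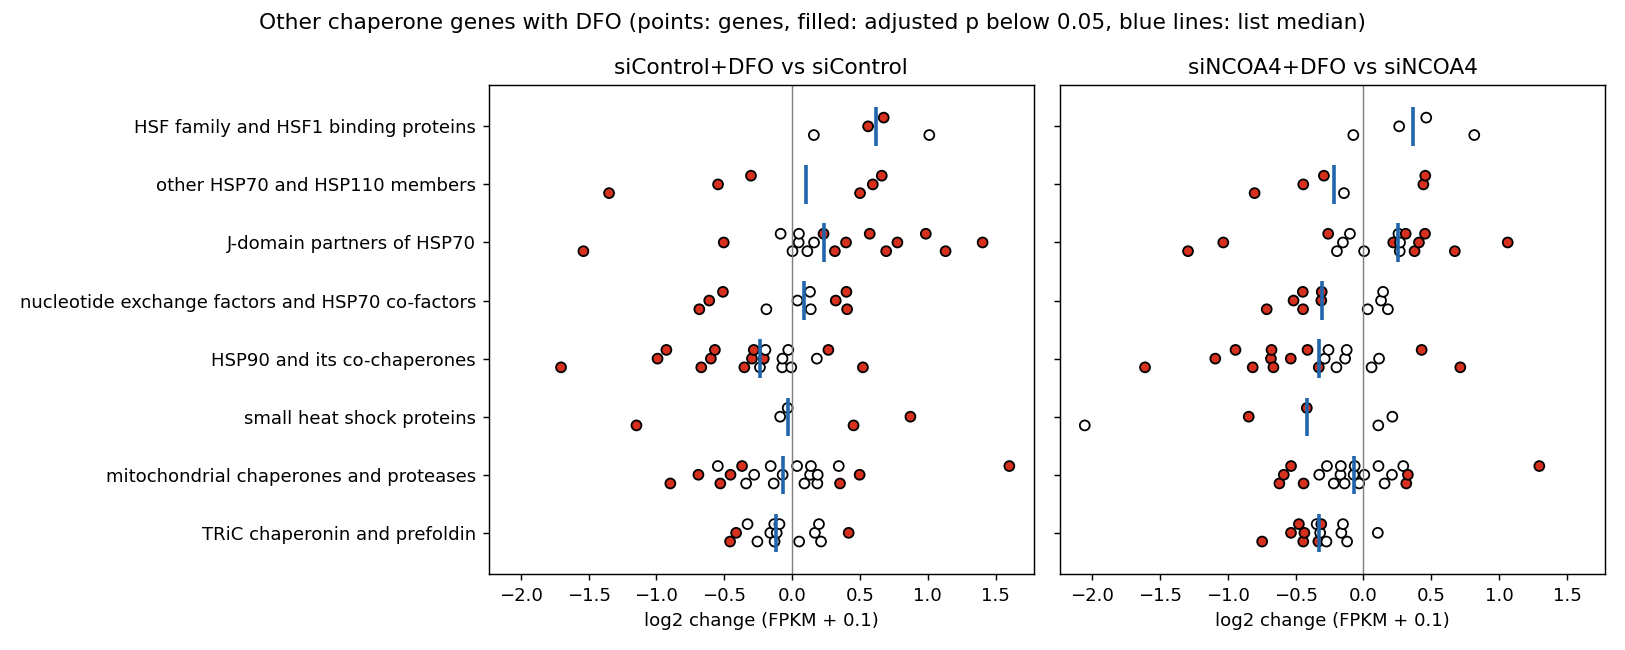
Log2 changes with DFO (x axes, log2 of FPKM + 0.1) of genes in 8 chaperone lists (y axis) in siControl cells and in siNCOA4 cells, with 1 point per gene, filled where the limma adjusted p was below 0.05, and blue lines at the list median. Points of the HSP90 list lay mostly left of 0 in both panels (10 lower and 2 higher called in each), and J-domain genes lay on both sides.

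The interaction was called for 4 of the 96 tested list genes (4.17%) against 2.1% of all genes, all of them lower against 1.43%. They were Hspa4l (-0.79, adjusted p = 0.0023, limma), Dnajb4 (-0.72, adjusted p = 0.022), Dnajb2 (-0.72, adjusted p = 0.041) and Cryab (-0.76, adjusted p = 0.041). Leave-one-out fits kept the call of Hspa4l, whereas that of Dnajb4 was lost without siNCOA4 replicate 1 (0.0546), siNCOA4 replicate 2 (0.0600), siControl+DFO replicate 1 (0.0652) or siNCOA4+DFO replicate 2 (0.0516), that of Dnajb2 in every such fit but the one without siControl+DFO replicate 3 (up to 0.0986), and that of Cryab in every one but those without a siNCOA4+DFO library (up to 0.0929). With no filter on low values, quantile normalization or no mean-variance trend the calls of Dnajb2 (up to 0.0633) and Cryab (up to 0.0823) were lost as well, and that of Dnajb2 also with the replicate block (0.0617).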

How the data were processed

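Total RNA of 12 HT22 libraries was converted with a stranded low-input total RNA kit and sequenced as 75-bp pairs. Gene expression was deposited by the authors as FPKM, with a separate table for each library. The authors' processing notes name Trimmomatic 0.33, FastQC, HISAT2 2.1.0, featureCounts, edgeR and mm10, without their roles. The annotation, strand setting and filters are not given in the sources used here. Strand setting matters for Hspa1a, which overlaps Gm20481 on the opposite strand. Exons of Hspd1 overlap those of Hspe1, and exons of Hspa8 those of Snord14c, Snord14d and Snord14e. How reads in such overlaps were counted is not given. Of 24347 entries, 4 sharing a name were left out.

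Groups and replicate numbers came from the labels. A means model of log2(FPKM + 0.1) was fitted by limma (version 3.58.1, R version 4.3.3) over 4 groups with empirical Bayes moderation and a mean-variance trend, for the 11924 genes that reached an FPKM of 0.5 in 3 or more libraries. P-values were two-sided and adjusted by Benjamini-Hochberg over all of these within each comparison, and genes were called at adjusted p below 0.05. Fold changes refer to log2(FPKM + 0.1) and understate changes of low genes. FPKM keeps no read count, so depth was known only relative to another library, and no counting interval was given. An exact rank or permutation test of 3 libraries against 3 cannot give a two-sided p below 0.1, and none was run. The limma p-values rest instead on its model of the spread over all libraries. The fit was tested on simulated data with 200 genes changed by 1.5 on the log2 scale. It recovered 168 of them for siNCOA4 at normal iron, 166 for DFO in siControl cells and 153 for the interaction. False calls were 8 of 176, 10 of 176 and 11 of 164 in the same order. Smaller changes were not simulated. Python 3.11.15 and matplotlib 3.10.9 were used for the other steps. Shared 75-base windows were counted in GENCODE transcripts of GRCm38.

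The members and lists were chosen with earlier results of these data known. Named were all 10 members, Ncoa4, and the 3 genes nearest to each of the 4 members with the largest changes. Genes of the lists were drawn from up to 3 called rises and falls per list and comparison, with a mean of at least 1 FPKM. Not all genes that met this rule are named above. The labels do not say whether libraries with the same replicate number were prepared together. Replicate numbers were used as a block only in an alternative. Alternatives changed the pseudocount, the filter, the scaling, the moderation, the fold rule and the libraries used.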

Additional observations from a re-analysis of the deposited data

Results flagged for a closer look

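The siNCOA4 effect differed between cells with and without DFO for 3 of the 9 tested heat shock genes, by the interaction term in limma, which was called for 2.1% of all genes. The 9 genes were chosen with earlier results of these data known. The difference on the log2 scale was -0.50 for Hsph1 (adjusted p = 0.0198), -0.62 for Hsp90aa1 (adjusted p = 0.0197) and -1.13 for Dnajb1 (adjusted p = 0.0159). For Hsp90aa1 the siNCOA4 change was 0.35 at normal iron and -0.28 under DFO, for Dnajb1 0.37 and -0.76, and for Hsph1 -0.12 and -0.62. The Dnajb1 call was kept in all alternatives run, whereas that of Hsp90aa1 was lost in 4 leave-one-out fits and that of Hsph1 in 5 and with quantile normalization, so that 1 to 3 genes were called when 1 library was left out. Groups of 3 libraries were too small for a test of single outlying libraries.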

How the results depend on the processing

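Requiring a fold change above 2 as well left 0 called members for siNCOA4 at normal iron, 1 for DFO in siNCOA4 cells, 0 for siNCOA4 under DFO and 2 for both treatments, and 212, 2244, 1362, 249 and 1809 genes in all for siNCOA4, DFO in siControl cells, DFO in siNCOA4 cells, siNCOA4 under DFO and both. Quantile normalization gave 3 members for siNCOA4, 3 for siNCOA4 under DFO and 165 genes for the interaction; moderation without a trend gave 164 genes for the interaction. Fitting only the groups compared gave 2 members and 1242 genes for siNCOA4 under DFO. Leaving out 1 library gave 0 to 2 members for siNCOA4, 5 for DFO in siControl cells, 7 for DFO in siNCOA4 cells, 3 to 6 for siNCOA4 under DFO, 6 to 8 for both and 1 to 3 for the interaction, and 724 to 1652, 5711 to 6567, 4280 to 5199, 1201 to 2100, 5163 to 5788 and 76 to 292 genes in all. The cause of these shifts was not tested.

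Directions reversed only for changes that were not called. With quantile normalization these were Hsf1 with DFO in siControl cells (-0.0759), Hsp90aa1 there (0.0338), Hspd1 with siNCOA4 under DFO (0.0227) and Hspa1a with both treatments (-0.33). Median-of-ratios scaling gave 0.00341 for Hsp90aa1 with DFO in siControl cells, and summing Hspa1a and Hspa1b gave -0.14 with DFO in siNCOA4 cells and -0.32 with both. Over the leave-one-out fits, Hspa1a ran from -0.92 to 0.16 with siNCOA4, from -0.11 to 0.97 with DFO in siNCOA4 cells, from -0.13 to 0.17 with both and from -0.64 to 0.45 in the interaction, Hsf1 from -0.0291 to 0.0937 and Hsp90aa1 from -0.0621 to 0.0496 with DFO in siControl cells.

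With the replicate number as a block, the members called were 1, 5, 7, 4, 7 and 3 for siNCOA4, DFO in siControl cells, DFO in siNCOA4 cells, siNCOA4 under DFO, both and the interaction, and 1181, 6241, 4955, 1741, 5714 and 171 genes in all. Same-numbered libraries correlated at -0.127 to 0.116 in their deviations from the group means, and 3 of 12 libraries correlated best with their own number, so the numbers were not taken as pairs.

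Among calls of members, those with DFO of Dnajb1, Hspa9, Hspa8, Hsph1 and Hspd1 were kept under every alternative that did not add the fold rule. The same held for these genes with both treatments against siControl, and for Hsf1 and Hsp90aa1 with DFO in siNCOA4 cells. It also held for Hsph1 and Dnajb1 with siNCOA4 under DFO and for the Dnajb1 interaction. The low FPKM of Hspa1a limits what its values can show.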
